A study of Bos taurus with 2 samples.

Results

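The nuclear genes of mitochondrial respiratory complexes II to V were examined in RNA from bovine milk whey. Members were all non-control array probes whose gene name in the array file begins with SDHA, SDHB, SDHC, SDHD, UQCR, CYC1 or ATP5, or with COX followed by a digit from 4 to 8. That choice used names alone and took 49 genes with 129 probes, of 15732 named genes and 43652 probes on the array. They are 4 subunits of complex II, 9 of complex III, 9 generally expressed subunits and 6 tissue-restricted isoforms of complex IV, 5 subunits of the F1 part of complex V and 10 of its stalk and membrane part, and 6 further genes that share such a name. COX6C, a general subunit of complex IV, carries another name in the array file and is described with the related genes.

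Oxidative phosphorylation moves electrons along a chain of protein complexes in the inner mitochondrial membrane and spends the resulting proton gradient on making ATP. Complex II (succinate dehydrogenase) passes electrons from succinate to ubiquinone, complex III (ubiquinol-cytochrome c reductase) passes them to cytochrome c, complex IV (cytochrome c oxidase) passes them to oxygen, and complex V (ATP synthase) makes ATP. All subunits of complex II and most subunits of the other 3 complexes are encoded in the nucleus, translated in the cytosol and imported. Several subunits of complex IV exist as isoforms, one in most tissues and another found mainly in muscle, lung or testis.

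Whey of Holstein raw milk was spun at 10000 g for 90 min. The labels call this step ultracentrifugation, for which that force is low; the value was taken as stated, and what the pellet holds depends on it. The pellet, resuspended and spun again for 2 washes, is the fraction the submitters call exosome, and the liquid above the first pellet is the supernatant. RNA of 3 samples was mixed equally, and 100 ng went into Cy3 labelling for 1 array per fraction. Each fraction is thus a single pool with no replicate, so sizes and counts are given with no test, and no spread between milk samples can be given. The labels state no check of vesicles. All 9 mammary epithelial genes looked at (caseins, whey proteins and keratins) were detected in the pellet, and 8 of them in the supernatant. The 6 genes of vesicle proteins looked at were likewise found in the pellet, with 3 of them in the supernatant. Over all named genes the shares detected were 69.3% in the pellet and 22.9% in the supernatant. These transcript counts are no check of vesicles.

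Detection here means the scanner software's mark for a signal well above background, and 1 marked probe is enough for a gene. Marked signals began at 11.3 on the exosome array and at 8.75 on that of the supernatant. Signals are the deposited processed signals, which are not scaled between arrays. For a gene with a probe detected on both arrays, the exosome signal over the supernatant signal was divided by the same ratio of the median gene measured on both arrays (3371 genes), because that median gene itself was 3.50 higher in log2 units on the exosome array. A value above 1 therefore means a larger excess in the exosome pellet than the median gene had. For a gene detected on the exosome array alone, the ratio is a lower bound, taken against the higher of the supernatant signal and the lowest detected supernatant signal, and written as at least N-fold over the median gene. In such bulk RNA, fewer particles that carry a transcript and fewer copies per particle cannot be told apart.

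The probes themselves show which part of a transcript was read. The 3 probes of ATP5F1B (beta subunit of the F1 part, which carries the catalytic sites) upstream of its 3′ end are shown because each was read from the exosome pellet but not from the supernatant, while the downstream pair was detected in both. They start at bases 341, 756 and 1362 of the transcript and lie on the plus strand of chromosome 5 in build HGSC Btau_3.1, the first at chr5:61356711-61356770, the second at chr5:61357887-61358448 and the third at chr5:61360080-61360139. The second covers 562 genomic bases, so its 60 bases cross an intron. On the exosome array the ATP5F1B signal was also lower upstream, at 331 for base 341 against 25142 and 16817 for bases 1678 and 1699. Whether the upstream part was absent from the supernatant or only below detection there was not tested. The probes of SDHA (the flavoprotein of complex II, which oxidises succinate) at bases 148 and 1821 are shown because that gene was detected along its length in the exosome pellet alone; the array file gives them no genome position. All are written 5′ to 3′ in the sense of the transcript.
ATP5F1B base 341: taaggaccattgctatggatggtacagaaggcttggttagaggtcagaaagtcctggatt
ATP5F1B base 756: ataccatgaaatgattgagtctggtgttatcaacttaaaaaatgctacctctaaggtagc
ATP5F1B base 1362: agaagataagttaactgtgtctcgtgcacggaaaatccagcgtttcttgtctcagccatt
SDHA base 148: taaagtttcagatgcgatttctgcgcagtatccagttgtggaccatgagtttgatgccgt
SDHA base 1821: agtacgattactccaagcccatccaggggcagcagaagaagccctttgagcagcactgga

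Transcripts of the respiratory complexes were present in the exosome pellet almost without exception and in the supernatant for fewer than 1 gene in 2. Of the 49 genes, 47 reached detection in the exosome pellet (95.9%, against 69.3% of all named genes) and 22 did so in the supernatant (44.9%, against 22.9%). No member was detected in the supernatant alone, 25 were seen in the exosome pellet alone, and COX4I2 and COX7B2 were detected in neither. Over the 15732 named genes those counts were 161, 7466 and 4668. Being seen in the exosome pellet alone was thus about as common among members as over the array. The 22 genes detected on both arrays had a median difference of 4.85 in log2 units over the median gene, with a range from -2.00 to 7.64. Of these 22, 18 exceeded the median gene by 2-fold or more (81.8%, against 37.2% of all measured genes), 2 fell short of it by 2-fold or more (9.09%, against 36.8%), and UQCRQ and COX6B2 lay between. On the exosome array the 22 had a median signal of 9704, against 452 for all measured genes. Their median on the supernatant array was 23.7, against 24.7, where marked signals began at 8.75. Among genes detected on both arrays, members thus had brighter exosome signals, while their supernatant signals were close to those of measured genes in general. Both supernatant medians cover detected probes alone, so their likeness cannot show where the excess over the median gene came from. Whether that excess reflects a selective passage of these transcripts into the pellet was not tested. The plot of every probe's signal shows the separation of the fractions gene by gene.

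**Figure D1:**
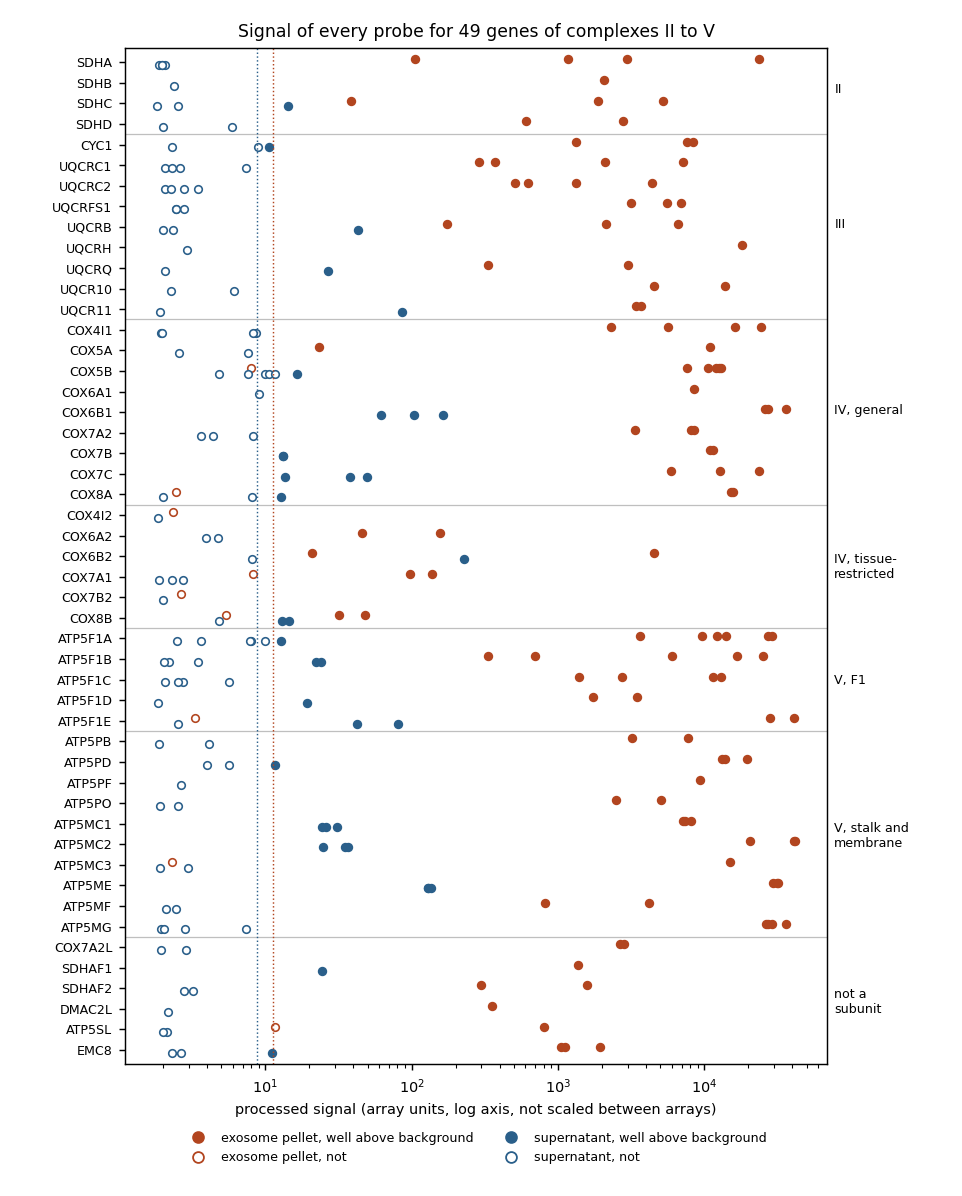
Processed signal of every probe (points) of the 49 genes on the exosome array (red) and the supernatant array (blue), on a log axis in array units with no scaling between arrays. Filled points were well above background and open points were not; dotted lines mark the lowest signal so marked on each array, 11.3 and 8.75. Nearly all exosome points are filled, 120 of 129 (93%, against 58.5% of all probes), while 36 of 129 supernatant points are (27.9%, against 13.1%).

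Genes seen on the exosome array alone entered through the fraction where they are high, so a bound can place them above the median gene or give no direction, and their direction supports nothing. As a description, of the 25 members in that state, 23 had a bound of at least 2-fold over the median gene (92%), against 39.2% of the 7466 named genes detected on the exosome array alone. The bound of 1 member, COX6A2, was under 1 and gives no fold.

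Complex II was read from the exosome pellet in all 4 subunits and from the supernatant in SDHC alone. That supernatant share was 25%, close to the 22.9% of all named genes. SDHC, a membrane anchor that holds the haem with SDHD, gave a signal of 5253 in the pellet and 14.4 in the supernatant at the probe nearest its 3′ end, 32.3-fold over the median gene. Its probe at base 794 gave 1880 and 1.82, so the supernatant call rested on 1 of 3 probes. SDHA, whose 4 probes lie at bases 148, 1507, 1821 and 2117, gave 105, 1172, 2968 and 23508 in the pellet and 2.07, 1.87, 1.98 and 1.98 in the supernatant. None of its supernatant signals reached detection, and its bound was at least 17.2-fold over the median gene. SDHB, the iron-sulphur subunit, gave 2065 against 2.38 and a bound of at least 20.8-fold. SDHD, the other anchor, gave 610 and 2800 against 5.94 and 1.99, and a bound of at least 13.2-fold. For these 3 subunits the supernatant level is known only as below detection.

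In complex III the exosome pellet held all 9 subunits, and the supernatant 4 of them (44.4%, against 22.9% of all named genes). Values were spread from well above to below the median gene. CYC1, the cytochrome c1 that hands electrons to cytochrome c, gave 8397 in the pellet and 10.6 in the supernatant, 70.0-fold over the median gene, on 1 of 3 probes. UQCR11, a small accessory subunit, gave 3716 and 85.8, 3.82-fold over the median gene. UQCRQ, which lies next to cytochrome b, gave 335 and 26.7, or 1.11 times the median gene's ratio. Its other probe gave 2987 in the pellet and 2.06 in the supernatant, the second not detected.

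UQCRB, the ubiquinone-binding protein, was the only one of the 4 measured complex III genes below the median gene, and that value came from a probe unlike the others. The probe at base 1011 of an expressed sequence tag (EST, a single read of a cDNA clone) gave 173 in the pellet and 43.2 in the supernatant, 0.354 times the median gene's ratio. Its first 13 bases read CTAACCCTAACCC, the letters of the vertebrate telomere repeat, found on either strand in 1 of the 43652 probes, and the array file does not place it on the genome. The RefSeq probes of UQCRB at bases 325 and 361 gave 2145 and 6591 in the pellet and 2.01 and 2.35 in the supernatant. With both arrays read through those RefSeq probes alone, UQCRB was not detected in the supernatant. UQCR11 also had its supernatant call from an EST probe, at base 329 of that tag, while its RefSeq probe at base 298 gave 3423 and 1.92.

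The 5 complex III genes seen in the exosome pellet alone include the large core proteins and the Rieske protein. UQCRC1 and UQCRC2, the core proteins that face the matrix, each had 4 probes detected in the exosome pellet and none in the supernatant, with bounds of at least 11.4-fold and 11.7-fold over the median gene. UQCRFS1, the Rieske iron-sulphur protein that takes electrons from ubiquinol, had a bound of at least 49.9-fold. UQCR10 and UQCRH, a small subunit and the acidic hinge protein, had bounds of at least 79.9-fold and 181-fold. The single UQCRH probe gave 17989 in the pellet and 2.92 in the supernatant, the latter not detected.

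The 9 generally expressed subunits of complex IV were all present in the exosome pellet. The supernatant held 5 (55.6%, against 22.9% of all named genes), and those 5 were from 25.7-fold to 108-fold over the median gene. COX7B gave a mean signal of 11214 in the pellet and 13.2 in the supernatant over 2 probes, 75.2-fold over the median gene. COX7C, another small subunit, gave 23725, 12876 and 5933 at its 3 probes in the pellet and 49.2, 37.7 and 13.7 in the supernatant, 36.6-fold over the median gene. COX6B1, which joins the monomers of the dimeric enzyme, gave 25996, 36169 and 27419 in the pellet and 62.1, 163 and 103 in the supernatant, 25.7-fold. These 3 small subunits were read by every probe in both fractions, and at each probe the exosome pellet was the higher. One of the COX6B1 probes is placed on chromosome 5 and the others on chromosome 18, and which copy of the sequence gave the signal was not tested.

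COX5B and COX8A were measured by 1 probe each. COX5B, a zinc-binding subunit on the matrix side, gave 13037 in the pellet and 16.4 in the supernatant, 70.1-fold over the median gene. That probe is placed on chromosome 23, while 4 others lie on chromosome 11 and gave a detected signal from the exosome pellet alone, and which copy gave this reading was not tested. COX8A, the smallest subunit, gave 15628 and 12.7 at base 446, 108-fold over the median gene. A probe 1 base away gave 15165 and 8.09, the latter just short of detection, and an EST probe placed on the opposite strand was detected in neither fraction.

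The other general complex IV subunits were seen in the exosome pellet alone. COX4I1, the general form of a regulatory subunit that binds adenine nucleotides, gave 2291, 5662, 24291 and 16279 at its 4 probes and 1.95, 1.96, 8.67 and 8.19 in the supernatant, a bound of at least 85.3-fold over the median gene. Its downstream supernatant signals were just under the lowest detected one. The bounds were at least 82.5-fold for COX6A1, 62.1-fold for COX7A2 and 5.08-fold for COX5A. The COX5A bound averages a RefSeq probe at 10964 in the exosome pellet with an unplaced EST probe at 23.2.

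Of the 6 tissue-restricted isoforms of complex IV, 2 were detected in neither fraction, 2 in the exosome pellet alone and 2 in both. Their supernatant share was 33.3%, against 22.9% of all named genes. Neither of the 2 measured isoforms, COX6B2 and COX8B, was 2-fold or more over the median gene, against all 5 measured general subunits. For COX6A2 and COX7A1 the exosome signals were too low for a bound of 2-fold, so their bounds add nothing to that comparison. COX4I2, the lung isoform, gave 2.35 in the pellet and 1.84 in the supernatant, and COX7B2, a testis isoform, gave 2.64 and 2.02, all undetected. COX6A2, the heart and skeletal muscle isoform, gave 45.7 and 155 in the pellet and 3.92 and 4.72 in the supernatant. Its bound fell under 1, so no direction relative to the median gene can be given.

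COX7A1, also a heart and skeletal muscle isoform, gave 98.0 and 138 at its RefSeq probes in the pellet and 2.74 and 2.32 in the supernatant, a bound of at least 1.17-fold. COX8B, the muscle and brown fat counterpart of COX8A, was detected in both fractions at 32.0 and 48.2 in the pellet and 13.1 and 14.6 in the supernatant. That is 0.251 times the median gene's ratio, the lowest value of the 22 measured members. COX6B2, a testis isoform, gave 4504 and 228 at base 568, 1.74 times the median gene's ratio, whereas its probe at base 471 gave 20.9 and 8.06, the latter undetected. The 4504 reading thus stood on 1 of 2 probes. Of 10 muscle and adipose genes examined for comparison, the exosome pellet held 5 (MYH7, ACTA1, CKM, TNNT3 and LEP) and the supernatant none; MYH1, MYH2, MB, UCP1 and ADIPOQ were detected in neither. Over all named genes the exosome pellet held 69.3% and the supernatant 22.9%. Whether muscle or adipose cells contributed to the isoform signals was not tested.

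**Figure D2:**
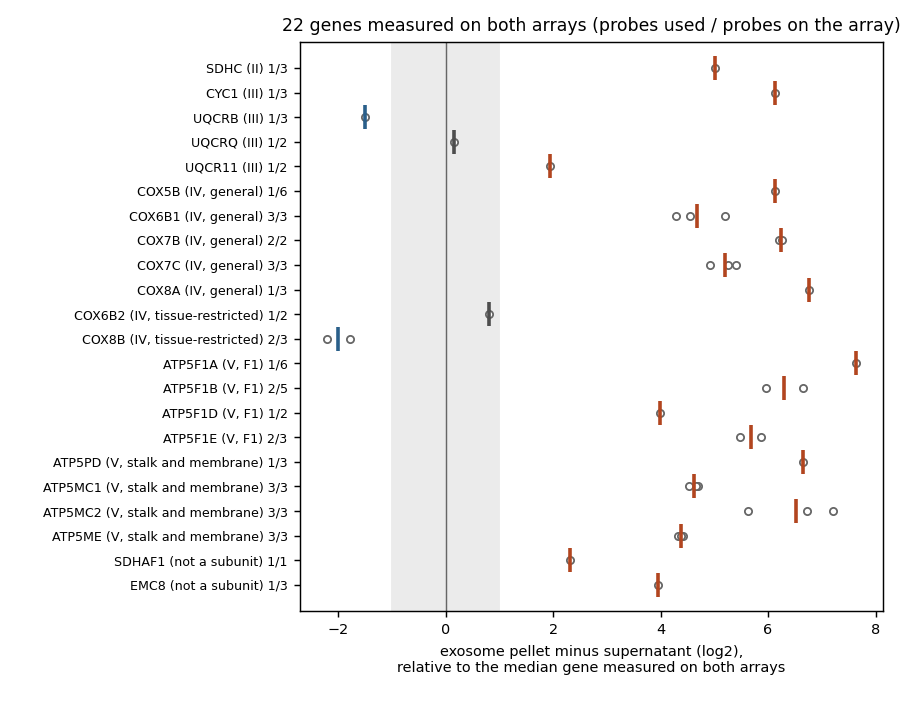
Exosome pellet minus supernatant in log2 units, relative to the median of all 3371 genes measured on both arrays (vertical line at 0), for the 22 members measured on both arrays. Vertical ticks are gene means, open circles single probes, the numbers after each name are the probes used over the probes on the array, and the grey band marks less than 2-fold. Of the 22 genes, 18 lie right of the band and 2, UQCRB and COX8B, left of it.

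In the F1 part of complex V, which carries the catalytic sites, 4 of 5 subunits were detected in the supernatant (80%, against 22.9% of all named genes). These 4 ran from 15.9-fold to 199-fold over the median gene. ATP5F1A, the alpha subunit, gave 29023 in the pellet and 12.8 in the supernatant at base 1680, 199-fold over the median gene and the highest value of the 22 measured members. It rested on 1 of 6 probes, and the probe 4 bases downstream gave 27259 and 9.92, the latter not marked well above background. ATP5F1B gave 25142 and 16817 at bases 1678 and 1699 in the pellet and 22.1 and 23.9 in the supernatant, 79.0-fold over the median gene. Its 3 upstream probes, printed above, gave 331, 692 and 5977 in the pellet and 2.20, 3.48 and 2.04 in the supernatant.

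ATP5F1E, the epsilon subunit, gave 28203 and 41303 in the pellet and 42.6 and 81.3 in the supernatant, 51.2-fold over the median gene. ATP5F1D, the delta subunit, gave 3480 and 19.3, 15.9-fold, at a probe with a run of 5 G. Runs of that length occurred in 3 member probes, 2 of them detected in the supernatant, and over the whole array 37.7% of such probes were detected there against 12.4% of the others. ATP5F1C, the gamma subunit that turns inside the F1 head, was detected by all 4 probes in the exosome pellet and none in the supernatant, a bound of at least 49.0-fold.

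All 10 genes of the stalk and membrane part of complex V were found in the exosome pellet. The supernatant held 4 of them too (40%, against 22.9% of all named genes). Among the c subunits, which form the rotating membrane ring and are encoded by 3 genes for the same mature protein, ATP5MC2 gave 41328, 41919 and 20680 in the pellet and 24.7, 35.0 and 36.9 in the supernatant, 91.7-fold over the median gene. ATP5MC1 gave 7182, 7376 and 8063 and 24.4, 25.8 and 30.9, 24.7-fold. ATP5MC3 gave 14955 at its RefSeq probe in the pellet and 1.90 in the supernatant, a bound of at least 151-fold. The ring genes were thus all brighter in the exosome pellet, with ATP5MC1 and ATP5MC2 also measured in the supernatant by every probe. The ATP5MC1 probes start at bases 492, 495 and 496, so they overlap almost fully and are close to a single reading. The last of them is placed at another site of chromosome 19, and which copy of the sequence gave the signal was not tested.

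ATP5ME, the e subunit at the dimer interface, gave 31371, 29492 and 31761 in the pellet and 130, 129 and 135 in the supernatant, 20.7-fold over the median gene, from probes that overlap within 8 bases of start. ATP5PD, the d subunit of the peripheral stalk, gave 13211 and 11.6, 101-fold, on 1 of 3 probes. ATP5MG, the g subunit at the dimer interface, gave 26351, 27445, 36324 and 28921 in the pellet and 1.95, 2.05, 2.83 and 7.42 in the supernatant. All 4 of its supernatant probes were undetected, and its bound of at least 297-fold was the highest of the 25. The remaining bounds ran from at least 18.7-fold for ATP5MF and 35.6-fold for ATP5PO, the stalk subunit that confers oligomycin sensitivity, to 50.3-fold for ATP5PB and 94.6-fold for ATP5PF, both also in the stalk.

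The 6 genes that share a name but are not subunits of these complexes were all present in the exosome pellet. The supernatant also held 2 of them (33.3%, against 22.9% of all named genes). SDHAF1, an assembly factor of complex II, gave 1371 and 24.4, 4.95-fold over the median gene, at a probe with a run of 5 G. EMC8, listed as COX4NB because it neighbours COX4I1 and encoding a subunit of the endoplasmic reticulum membrane complex, gave 1951 and 11.1, 15.5-fold. COX7A2L, which helps join complexes III and IV, had a bound of at least 27.5-fold. SDHAF2, which helps attach flavin to SDHA, had a bound of at least 6.92-fold, and those of ATP5SL and DMAC2L (listed as ATP5S) were 8.14-fold and 3.59-fold.

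Detection in the supernatant was counted by where a probe lay along its transcript. The 35 member transcripts with several RefSeq probes had their last probe detected in the supernatant in 15 cases (42.9%), and 15 of their 65 other probes were detected (23.1%). Over all such transcripts on the array the shares were 18.0% and 10.8%. On the exosome array all 35 last and all 65 other member probes were detected, against 73.1% and 62.8% over the array. With every such member probe detected, these exosome shares cannot show whether signal changed along a transcript. The exosome signals themselves rose from the first to the last probe along most of these transcripts. Examples are SDHA, UQCRC1 (291 to 7205) and ATP5F1B (331 to 16817). They fell along fewer, such as COX7C and UQCRQ (2987 to 335). Whether the supernatant shares follow from that rise was not tested. Of the 35 transcripts, 7 had every probe detected in the supernatant, 18 had none and 10 had some, and in 8 of those 10 the last probe was among the detected ones (80%, against 60.0% of 2226 such transcripts on the array).

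Letters of the polyadenylation signal gave a similar split. AATAAA or ATTAAA, searched on the transcript's strand, stood in 46 of the 129 member probes (35.7%, against 12.7% of all probes), and the reverse complements TTTATT or TTTAAT in 14 (10.9%, against 5.67%). Of the 46, 21 were detected in the supernatant (45.7%), and of the other 83, 15 were (18.1%). Over the whole array those shares were 20.7% and 12.0%. By contrast, 11 member probes cross an intron in the array file's coordinates, which was taken as a span of over 100 genomic bases, of which the exosome pellet gave signal at 9 and the supernatant at none. Over the whole array the exosome pellet gave signal at 51.9% of such probes and the supernatant at 6.97%. The median GC content was 45% for member probes and for all probes.

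**Figure D3:**
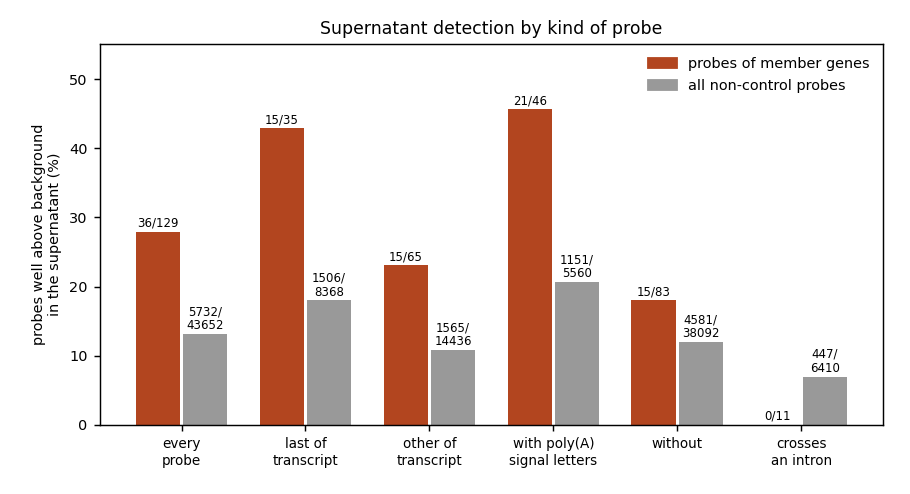
Share of probes well above background in the supernatant (bars, in percent from 0), for probes of the 49 genes (red) and for all non-control probes (grey), by kind of probe; numbers above bars are detected over total. The member share is 42.9% for the last probe of a RefSeq transcript with several probes and 23.1% for the others, 45.7% with AATAAA or ATTAAA and 18.1% without, and 0 of 11 for probes that cross an intron.

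EST probes that the array file does not place on the genome were detected in part. Of 6 such probes (of ATP5MC3, COX5A, COX5B, COX7A1, SDHC and UQCRB), 3 were detected in the exosome pellet (50%, against 34.4% of the 526 such probes on the array), while all 13 other probes of those 6 genes were. The UQCRB tag was the 1 of these 6 detected in the supernatant (16.7%, against 11.4%). Probes of one transcript that start within 10 bases of each other gave a measure of agreement. The 12 member pairs differed by a median of 0.099 and at most 0.40 in log2 units on the exosome array, and the 6 pairs detected in the supernatant by a median of 0.071 and at most 0.66. Over all such pairs on the array the medians were 0.244 and 0.284. Of the 22 measured members, 13 rested on 1 probe, and in the 9 with more the SD between probes of a gene was 0.39 in log2 units. Over the 525 genes on the array with several measured probes, that SD was 1.71. ATP5ME, ATP5MC1, COX7B and COX6B1, among the 9, have probes that start within 10 bases of each other. The 0.39 may therefore understate the uncertainty of a member read by 1 probe. The error that can be given for a spot is technical, an SD of 0.18 in log2 units for the difference over 9 repeated probes.

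Genes that build, feed or regulate the complexes were read in the same way. Of 31 assembly factors listed, 27 were on the array, 25 of them present in the exosome pellet and 2 also in the supernatant. COX14, which builds complex IV, was 4.29 in log2 units above the median gene and SDHAF4, which builds complex II, 1.05 above. COX18 and TACO1 were detected in neither fraction. The exosome pellet held all 11 carriers and transporters, the supernatant 3 of them, namely cytochrome c (CYCS, 2.64 above the median gene), the beta subunit of electron transfer flavoprotein (ETFB, 5.42) and the ADP/ATP carrier SLC25A6 (3.19). Of the nuclear regulators of the pathway, the 8 on the array all reached detection in the exosome pellet, 3 of them in both fractions, with NRF1 at -3.01, ESRRA at -0.87 and TFB1M at 0.72. Among subunits listed under other names, COX6C was 4.95 and ATP5MK 4.31 in log2 units above the median gene, with ATP5MJ and the inhibitor ATP5IF1 detected in the exosome pellet alone.

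Transcripts of other cells in milk were checked because leukocytes and epithelium share these genes. The 9 mammary genes had a median of 6.30 in log2 units above the median gene over the 8 measured. Of 13 leukocyte genes, the exosome pellet held 7, the supernatant 5 of these, with a median of -0.43 relative to the median gene. Over all named genes the exosome pellet held 69.3% and the supernatant 22.9%. CD3E, CD8A, MS4A1, ITGAM, CXCR2 and CSF3R were detected in neither. The share of each cell type in the signals of the respiratory genes was not tested.

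The absolute direction depended on how the arrays were scaled for some genes. As deposited, all 22 measured members were brighter in the exosome pellet by 2-fold or more (100%, against 83.3% of all measured genes). Scaled to each array's 75th percentile, 16 were higher in the exosome pellet by 2-fold or more (72.7%, against 18.1%) and 4 in the supernatant (18.2%, against 63.5%), and the median gene stood at -2.06 in log2 units. On that scale the bounds of COX6A2, COX7A1 and DMAC2L were under 1 and give no direction. Of 6 scalings tried, 16 members were higher in the exosome pellet under each and 6 changed sign. UQCRB and COX8B changed sign under all scalings other than none, at -0.07 and -0.57 with spike-in probes. UQCRQ, UQCR11 and COX6B2 were below 0 under both 75th percentile scalings and quantile scaling, at -1.91, -0.13 and -1.26 under the main one, and SDHAF1 under quantile scaling alone, at -0.83. Values relative to the median gene are the same under every constant scaling.

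**Figure D4:**
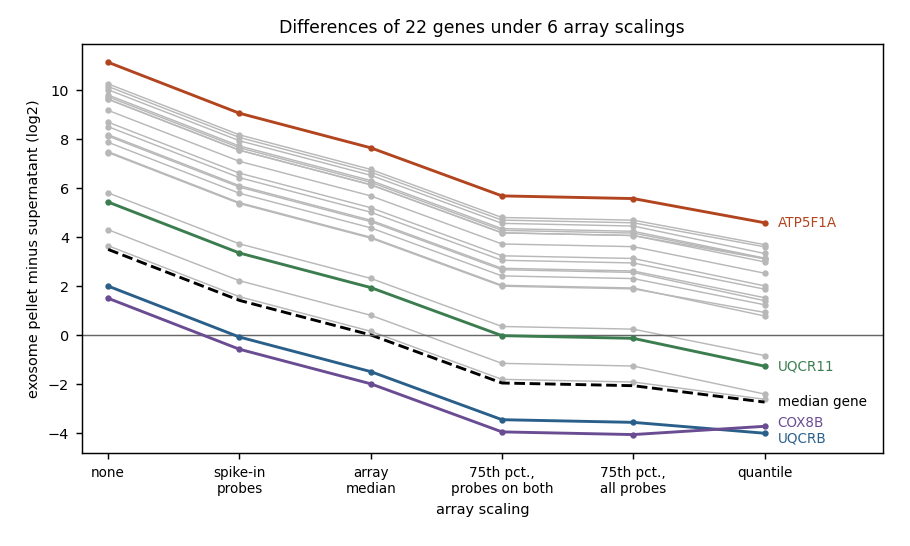
Exosome pellet minus supernatant (log2) of the 22 measured members (lines) under 6 scalings of the arrays, with the median of all measured genes dashed. The median gene runs from 3.50 with no scaling to -2.73 with quantile scaling; ATP5F1A stays above 0 throughout, and UQCRB, COX8B and UQCR11, also in colour, cross it.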

How the data were processed

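RNA of the pellet and of the supernatant was read on 1 Agilent 1-colour bovine array each, both on the same slide and scan. The authors deposited intensity values that are processed signals of Agilent Feature Extraction 10.7.3.1, background-subtracted per array, per the file headers, with no step that sets 1 array against the other, and with probe positions in build HGSC Btau_3.1. The authors' deposited table holds log2 values that match these signals within 0.001 for 43603 single-spot probes, with column medians of 4.81 and 1.32, so they are neither scaled nor centred. The flags deposited by the authors (other values) were used as they stand. Any further step was not given in the sources used here.

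Outlier spots (5 and 2, none of a member) and controls were left out, no spot was saturated, and spots of a probe were averaged. Log2 signals were set relative to each array's 75th percentile (248 and 5.24), the second of which lies below the lowest detected signal. Differences were averaged over the probes of a gene that both arrays detected. Symbols of 17 member genes were updated through a RefSeq gene table of assembly ARS-UCD2.0, used for names only; 105 of 129 member probes had an accession in it. Exon and untranslated regions were not analysed here. Members and lists were chosen with earlier results of these data known. Named with values were all members measured on both arrays, the highest 3 and lowest 2 bounds per complex, all undetected members and all tissue-restricted isoforms; ATP5F1C, COX5A and ATP5PB, and genes that carry other names in the array file, were added for completeness. The scripts (Python 3.11.15, pandas 2.3.3, and limma 3.58.1 for normexp and offset 50) were tested on simulated data. With 2 arrays there is no test, and their number limits the precision.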

Additional observations from a re-analysis of the deposited data

How the results depend on the processing

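Detection decided most counts. The shares of all genes under the changed detection settings are not given, so these counts describe the members alone and cannot show whether they stood out. With the software's weaker flag, 39 members were detected in the supernatant, 33 exceeded the median gene by 2-fold or more, the median was 5.30, and 29 were 2-fold or more higher in the pellet after 75th percentile scaling. With signals at least 4 times the lowest detected one these values were 8, 6, 4.65 and 5. With every probe of a gene required, 7 members were detected in the supernatant, 7 were above the median gene and 6 were higher after scaling. With no filter, 45 were above the median gene with a median of 5.66, 39 were higher after scaling, and UQCRB turned positive, at 4.93. COX6B2, at 0.80, turned to -0.56 with the weaker flag and -0.07 with no filter, UQCRQ, at 0.15, to -0.10 under normexp, and SDHC fell from 5.01 to 2.82 with the weaker flag. Quantile scaling gave a median of 4.44, and leaving out the genes that are not subunits gave 5.10. As alternatives added after seeing the data, the median was 5.00 without unplaced EST probes and 4.88 with RefSeq probes alone. All other alternatives run (normexp, the other scalings, the brightest probe, outlier spots kept, the deposited table, file names, added names) kept the counts within 1.5 times, and the cause of the moves was not tested beyond the number of probes kept. Values of single genes were less stable. Under normexp ATP5F1A fell from 7.64 to 6.43 and COX8A from 6.76 to 5.24. There ATP5ME rose from 4.37 to 5.14 and COX6B2 from 0.80 to 1.79, past 2-fold. Under quantile scaling COX8B went from -2.00 to -0.99, short of 2-fold. No paired analysis was possible because each fraction has 1 array.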
